A study of Mus musculus with 12 samples.

Results

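The genes described here encode the mitochondrial respiratory chain, cytochrome c and ATP synthase, together with a set of complex I assembly factors. They were chosen by symbol alone. A gene was a member if its symbol starts with Nduf, Uqcr or Atp5, or with Cox followed by a number from 4 to 8, or is Sdha, Sdhb, Sdhc, Sdhd, Cyc1 or Cycs. Of the 18193 genes with a probe set of their own, 92 were members. These were 34 subunits of complex I, 8 complex I assembly factors (Ndufaf1 to Ndufaf8), 4 subunits of complex II, 9 of complex III, Cycs for cytochrome c, 19 genes of complex IV and 17 of ATP synthase. Ndufa4 and Ndufa4l2 were counted with complex IV, in which Ndufa4 is a subunit. Within complex IV, 8 genes (Cox4i2, Cox6a2, Cox6b2, Cox7a1, Cox7b2, Cox8b, Cox8c and Ndufa4l2) are isoforms known from muscle, testis, lung or hypoxic cells, which left 76 structural subunits, 8 assembly factors and 8 restricted isoforms. Some other subunits, Ndufs6, Ndufa11 and Cox7b among them, are not analysed here.

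Complex I takes electrons from NADH and complex II takes them from succinate, and both pass them to coenzyme Q. Complex III carries them on to cytochrome c and complex IV to oxygen, and ATP synthase uses the proton gradient that complexes I, III and IV build. A resting T cell that meets antigen grows and prepares to divide within hours, and mitochondrial respiration supports that step. Complex I is built stepwise in modules by assembly factors that are not part of the finished enzyme, while most other members here are nuclear genes for parts of the finished complexes.

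Gene expression was measured on 12 arrays in lymph node cells of mice of the P14-TCR strain, whose transgenic T cell receptor recognises the viral peptide gp33-41. The 4 groups, of 3 arrays each, were PKD2-null cells cultured for 4 h with the peptide at 62.5 ng/ml, wild-type cells cultured for 4 h with the peptide, PKD2-null cells cultured for 4 h without it, and wild-type cells cultured for 4 h without it. They came from 3 PKD2-null and 3 wild-type mice, each of which gave 1 stimulated and 1 unstimulated array, and all of them carried the P14 receptor. PKD2 is a serine/threonine kinase activated downstream of the antigen receptor; the null allele and the age of the mice are not given in the sources used here. Levels below are log2 signals as deposited, changes are differences of group means (n = 3 arrays each) in the same unit, SE is their standard error from limma, and tests are two-sided. A gene rose or fell where its p, adjusted by Benjamini and Hochberg over 45037 probe sets, was under 0.05.

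The label of the mice held, since the Prkd2 signal was 18.0-fold lower in unstimulated and 7.22-fold lower in stimulated PKD2-null cells than in wild-type cells. Arrays of a group correlated at 0.991 or more, and the arrays of the 2 culture conditions at no more than 0.98. Whole lymph node suspensions hold several cell types, so that fewer cells of a type and less RNA per cell cannot be told apart. CD8 T cell markers (5 of 6 listed genes measured) averaged 10.5 to 11.0 on every array of the 4 groups, and CD4 T cell markers (4 of 4) averaged 5.19 to 5.63. The CD8 average joins genes that moved apart with the peptide: Cd5 rose by 1.69 and Cd8b1 fell by 1.11 in PKD2-null cells, and Cd5 rose by 1.88 and 2 genes fell, Cd8b1 by 1.38, in wild-type cells. The 9 measured of 10 listed B cell markers averaged 8.98 to 9.70 on stimulated PKD2-null arrays and 8.35 to 8.54 on stimulated wild-type arrays, and 9.71 to 10.4 on unstimulated PKD2-null arrays and 9.20 to 9.30 on unstimulated wild-type arrays. With the peptide 5 of the 9 fell in PKD2-null cells and 7 fell in wild-type cells, and 3 were called higher in stimulated PKD2-null than in stimulated wild-type cells. Plasma cell markers (5 of 5) averaged 8.09 to 8.97, 7.68 to 8.14, 8.81 to 9.49 and 8.21 to 8.52 in the same order of groups. Of these, 3 fell with the peptide in PKD2-null and 2 in wild-type cells, and Sdc1 was called higher in stimulated PKD2-null than in stimulated wild-type cells (1.26, adjusted p = 0.011). NK cell markers (4 of 5) averaged 6.26 to 6.91, 6.81 to 6.93, 6.20 to 6.91 and 6.77 to 7.08 in that order, and Klrd1 was called lower in stimulated PKD2-null than in stimulated wild-type cells (-0.92, adjusted p = 0.027). Erythroid markers (3 of 5) averaged 3.96 to 4.22, 4.69 to 5.48, 3.94 to 4.30 and 4.63 to 5.78, lower on every PKD2-null than on every wild-type array. Most of that gap came from Alas2, the gene with the lowest difference in both conditions (-2.43 in stimulated cells, SE 0.73, limma adjusted p = 0.14). The median difference of the 3 genes was -0.23 in stimulated and -0.20 in unstimulated cells, and none of the 3 was called between genotypes. Myeloid and dendritic cell markers (9 of 9) averaged 5.92 to 6.70 over the 12 arrays. The part of these markers in the results below was not tested. The difference between the 3′ and 5′ probe sets of the actin control, a measure of RNA quality, was 0.179 to 0.221 in stimulated PKD2-null, 0.181 to 0.238 in stimulated wild-type, 0.214 to 0.355 in unstimulated PKD2-null and 0.252 to 0.296 in unstimulated wild-type arrays.

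The first comparison asked how the respiratory chain genes responded to 4 h of antigen in each genotype. Most members moved little, as most of all genes did, and those that moved went both ways. In PKD2-null cells 24 of the 92 members rose (26.1%) and 13 fell (14.1%), where 12.5% and 19.0% of all 18193 genes did. In wild-type cells 29 rose (31.5%) and 12 fell (13.0%), where 15.1% and 20.4% of all genes did. Those all-gene shares include many dim genes, while only 4 of the 92 members had a mean under 5. Of the 10328 genes left when dim probe sets were left out, 2339 rose and 3549 fell in PKD2-null cells. In wild-type cells 2682 of them rose and 3751 fell. Against these genes the gap to the members was smaller for rises and larger for falls. The median change of the members was 0.12 in PKD2-null and 0.12 in wild-type cells, beside -0.02 and 0.01 for all genes. Without dim probe sets the medians over the genes left were -0.09 and -0.07. In PKD2-null cells 75 members (81.5%) stayed within 0.5 of no change, and in wild-type cells 70 (76.1%) did, against 76.8% and 73.0% of all genes. The medians of the 92 changes were 0.07, 0.04 and 0.18 in the 3 PKD2-null mice and 0.11, 0.13 and 0.12 in the 3 wild-type mice. After quantile normalization of the arrays the split was 19 rises and 15 falls in PKD2-null cells and 24 rises and 19 falls in wild-type cells. Without unstimulated PKD2-null replicate 1 there were 8 falls in PKD2-null cells, and without stimulated PKD2-null replicate 3 there were also 8.

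By the median, the 8 complex I assembly factors among the members moved further than structural subunits. The 2 classes were described and not tested against each other. Of the 8 assembly factors, 5 rose and 1 fell in each genotype, with a median change of 0.58 in PKD2-null and 0.73 in wild-type cells. Of the 76 structural subunits, 19 rose and 12 fell in PKD2-null cells and 24 rose and 11 fell in wild-type cells, with medians of 0.13 and 0.12. The 41 measured assembly factors outside the symbol rule, described below, had lower medians than these 8. Their medians were 0.05 in PKD2-null cells, below that of the structural subunits, and 0.17 in wild-type cells, slightly above it. None of the 8 restricted isoforms was called in either genotype (limma; 0 at an unadjusted p under 0.05 in PKD2-null and 1 in wild-type cells, beside 39.1% and 42.2% of all genes), and each averaged under 7 over the 12 arrays. With them, Cox7c, Ndufaf6, Ndufaf7 and Ndufb4 made up the 12 members with a mean under 7.

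**Figure D1:**
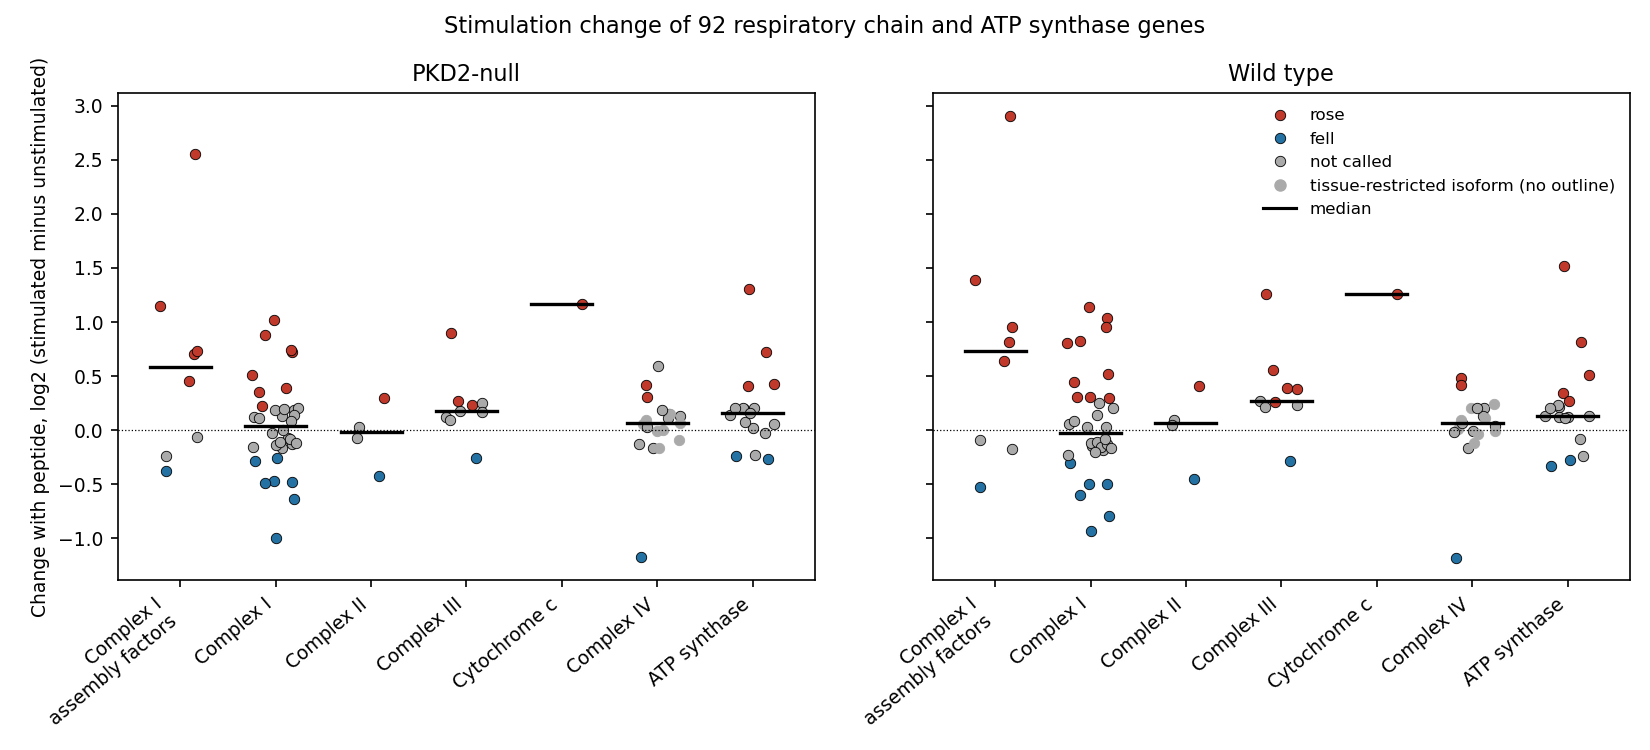
Change of each of the 92 members with the peptide (log2, stimulated minus unstimulated), by complex, in PKD2-null cells (left) and wild-type cells (right); each point is 1 gene, coloured by its call, and the bar is the median of the complex. The assembly factors have the highest median of the groups with several genes (0.58 in PKD2-null and 0.73 in wild-type cells), and complex I spreads to both sides of 0.

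Ndufaf4, an assembly factor that acts early in building complex I, had the largest rise of the 92 members in both genotypes. Its level was 10.68, 10.58 and 10.82 on the stimulated PKD2-null arrays, against 8.06, 8.28 and 8.09 on the unstimulated PKD2-null arrays. The level was 11.00, 10.90 and 10.89 on the stimulated wild-type arrays, against 8.22, 7.98 and 7.87 on the unstimulated wild-type arrays. The lowest stimulated array lay more than 2 log2 units above the highest unstimulated one in either genotype. Ndufaf4 rose by 2.55 (SE 0.106, adjusted p = 1.3e-08), 5.86-fold, in PKD2-null cells and by 2.91 (SE 0.106, adjusted p = 2.3e-09), 7.51-fold, in wild-type cells. Its other probe set, which is dimmer, rose by 2.37 and 2.56. The 250 bases before its start are shown because the gene led the members; they lie on the plus strand at chr4:24897833-24898082 (RefSeq, GRCm38.p6), and the capitals mark a match to the 10-letter NRF1 palindrome (any base allowed at one inner position), which begins 113 bases before the start.
Ndufaf4: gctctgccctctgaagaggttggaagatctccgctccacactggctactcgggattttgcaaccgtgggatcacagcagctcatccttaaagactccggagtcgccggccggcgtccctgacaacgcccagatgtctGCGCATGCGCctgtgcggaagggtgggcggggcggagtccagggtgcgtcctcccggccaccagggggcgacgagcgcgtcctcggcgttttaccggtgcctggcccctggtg

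Ndufaf6, needed for the early steps that involve the mitochondrially encoded subunits, had the next largest rise of the assembly factors. Its level was 7.36, 7.43 and 7.61 on the stimulated PKD2-null arrays, against 6.29, 6.36 and 6.31 on the unstimulated PKD2-null arrays. Wild-type cells gave 7.64, 7.46 and 7.57 on the stimulated wild-type arrays, against 6.14, 6.42 and 5.93 on the unstimulated wild-type arrays. The conditions did not overlap in either genotype, and the unstimulated wild-type arrays were spread more widely than the unstimulated PKD2-null arrays. The rise was 1.15 (SE 0.117, adjusted p = 1.1e-05) in PKD2-null and 1.39 (SE 0.117, adjusted p = 1.4e-06) in wild-type cells.

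The other called assembly factors had smaller changes. Ndufaf8, a small partner of Ndufaf5, rose by 0.73 in PKD2-null and 0.95 in wild-type cells. Ndufaf2, a paralog of the subunit Ndufa12 that holds its place during assembly, rose by 0.70 and 0.81. Ndufaf1, a chaperone of the membrane arm, rose by 0.46 and 0.64 (adjusted p at most 0.00022 for these 3 genes in either genotype). Ndufaf3, which forms a complex with Ndufaf4, fell. It read 7.90, 8.07 and 7.99 on the stimulated PKD2-null arrays, against 8.42, 8.45 and 8.22 on the unstimulated PKD2-null arrays. In wild-type cells it read 7.56, 7.67 and 7.65 on the stimulated wild-type arrays, against 8.09, 8.24 and 8.13 on the unstimulated wild-type arrays. Every stimulated array was below every unstimulated one within each genotype. Ndufaf3 fell by 0.38 (SE 0.0872, adjusted p = 0.0058) in PKD2-null and by 0.53 (SE 0.0872, adjusted p = 0.00041) in wild-type cells. Ndufaf5, which modifies the core subunit Ndufs7, changed by -0.24 and -0.09, and Ndufaf7, a methyltransferase, by -0.06 and -0.18, without a call.

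Complex I subunits split between rises and falls. Of the 34, 8 rose and 7 fell in PKD2-null cells and 10 rose and 6 fell in wild-type cells, with medians of 0.04 and -0.03. The 6 measured core subunits, which carry the flavin, the iron-sulfur clusters and the quinone site, had changes of -0.16 to 0.19 in PKD2-null and -0.22 to 0.30 in wild-type cells. None of the 6 was called in PKD2-null cells (limma; 0 at an unadjusted p under 0.05). In wild-type cells Ndufs1 and Ndufs3 rose by 0.30 (adjusted p = 0.017) and 0.29 (adjusted p = 0.010). Their changes in PKD2-null cells were 0.19 and 0.14. The Ndufs3 call was lost after quantile normalization (0.20, adjusted p = 0.077, in a range of 0.0032 to 0.077 over 20 settings), and Ndufs1 was called in PKD2-null cells without unstimulated replicate 1 (0.27, adjusted p = 0.030). Ndufs7, Ndufs8, Ndufv1 and Ndufv2 had changes of -0.16, 0.19, -0.12 and 0.08 in PKD2-null cells and -0.22, 0.25, -0.17 and 0.03 in wild-type cells. Some single settings called 3 of these 4: Ndufs8 in wild-type cells with probe sets averaged per gene (0.24, adjusted p = 0.031) and in both genotypes without unstimulated PKD2-null replicate 2 (0.31, adjusted p = 0.038, in PKD2-null and 0.25, adjusted p = 0.048, in wild-type cells), Ndufs7 in wild-type cells without unstimulated replicate 3 (-0.33, adjusted p = 0.047), and Ndufv1 in wild-type cells after quantile normalization (-0.27, adjusted p = 0.023). Other bright probe sets of these genes were called: one of Ndufv2 rose by 0.25 (adjusted p = 0.030) in PKD2-null and 0.33 (adjusted p = 0.0059) in wild-type cells, and one of Ndufs8 rose by 0.41 (adjusted p = 0.0020) in wild-type cells.

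The accessory subunits carried the larger changes: 8 of 28 rose in each genotype, and 7 fell in PKD2-null and 6 in wild-type cells. Ndufa12, an accessory subunit of the peripheral arm that takes the place of Ndufaf2, had the largest rise. Its level was 11.57, 11.55 and 11.59 on the stimulated PKD2-null arrays, against 10.44, 10.80 and 10.42 on the unstimulated PKD2-null arrays. For wild-type cells the values were 11.58, 11.68 and 11.66 on the stimulated wild-type arrays, against 10.46, 10.52 and 10.52 on the unstimulated wild-type arrays. The groups did not overlap, and unstimulated PKD2-null replicate 2 was higher than the other unstimulated arrays. Ndufa12 rose by 1.02 (SE 0.0991, adjusted p = 7.5e-06) in PKD2-null and by 1.14 (SE 0.0991, adjusted p = 1.8e-06) in wild-type cells. Both other bright probe sets of the gene gave 0.98 and 1.01 in PKD2-null and 1.24 and 1.22 in wild-type cells.

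Ndufa5, an accessory subunit of the peripheral arm, also rose. The arrays read 10.27, 10.22 and 10.33 on the stimulated PKD2-null arrays, against 9.57, 9.55 and 9.52 on the unstimulated PKD2-null arrays. In wild type they read 10.40, 10.51 and 10.34 on the stimulated wild-type arrays, against 9.38, 9.50 and 9.23 on the unstimulated wild-type arrays. All stimulated values were above all unstimulated values of the same genotype. The rise was 0.73 (SE 0.0857, adjusted p = 3.6e-05) in PKD2-null and 1.04 (SE 0.0857, adjusted p = 1.2e-06) in wild-type cells. Ndufab1, the mitochondrial acyl carrier protein that complex I holds as a subunit, rose by 0.74 and 0.96. Ndufb6 and Ndufb2, both of the membrane arm, rose by 0.88 and 0.51 in PKD2-null cells and by 0.82 and 0.81 in wild-type cells.

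Ndufa6, a LYR-motif protein that docks the acyl carrier protein Ndufab1 on the peripheral arm, fell in both genotypes. It measured 10.55, 10.55 and 10.34 on the stimulated PKD2-null arrays, against 11.57, 11.42 and 11.45 on the unstimulated PKD2-null arrays. The wild-type values were 10.39, 10.55 and 10.49 on the stimulated wild-type arrays, against 11.36, 11.45 and 11.41 on the unstimulated wild-type arrays. The conditions were separated on every array of both genotypes. Ndufa6 fell by 1.00 (SE 0.0863, adjusted p = 2.9e-06), 2.00-fold, in PKD2-null cells and by 0.93 (SE 0.0863, adjusted p = 3.1e-06), 1.91-fold, in wild-type cells. The other LYR-motif subunit, Ndufb9, picked out here after its values were seen, changed by -0.08 in each genotype without a call. The acyl carrier gene rose while the gene of 1 of its 2 docking subunits fell.

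Ndufv3, a small accessory subunit near the NADH-binding site, fell as well. Its signal was 9.75, 9.82 and 9.60 on the stimulated PKD2-null arrays, against 10.33, 10.50 and 10.27 on the unstimulated PKD2-null arrays. Its wild-type signal was 9.35, 9.67 and 9.48 on the stimulated wild-type arrays, against 10.20, 10.36 and 10.33 on the unstimulated wild-type arrays. Stimulated and unstimulated arrays did not overlap. Ndufv3 fell by 0.64 (SE 0.104, adjusted p = 0.00045) in PKD2-null and by 0.79 (SE 0.104, adjusted p = 5.8e-05) in wild-type cells. Genes of the membrane arm had smaller falls: Ndufb11, Ndufb10 and Ndufa3 fell by 0.49, 0.47 and 0.48 in PKD2-null cells and by 0.60, 0.50 and 0.50 in wild-type cells. Ndufb4 is represented by a dim probe set (mean 3.78), since its bright probe sets also match other genes and were left out.

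Complex II has 4 nuclear subunits, of which 1 rose and 1 fell in each genotype. Sdha, the flavoprotein that oxidises succinate, fell. The levels of Sdha were 10.49, 10.52 and 10.55 on the stimulated PKD2-null arrays, against 11.08, 10.84 and 10.90 on the unstimulated PKD2-null arrays. They were 10.46, 10.63 and 10.67 on the stimulated wild-type arrays, against 10.89, 11.10 and 11.10 on the unstimulated wild-type arrays. Conditions did not overlap in either genotype. Sdha fell by 0.42 (SE 0.0953, adjusted p = 0.0052) in PKD2-null and by 0.45 (SE 0.0953, adjusted p = 0.0028) in wild-type cells, and a second bright probe set fell by 0.98 and 0.97. Sdhc, one of the membrane anchors, rose by 0.30 in PKD2-null and 0.41 in wild-type cells. The arrays gave 8.63, 8.42 and 8.49 on the stimulated PKD2-null arrays, against 8.11, 8.31 and 8.22 on the unstimulated PKD2-null arrays. Wild-type arrays gave 8.49, 8.58 and 8.50 on the stimulated wild-type arrays, against 8.20, 8.03 and 8.12 on the unstimulated wild-type arrays. These groups did not overlap, and the PKD2-null call (adjusted p = 0.022) did not hold with mouse as a block (adjusted p = 0.051, in a range of 0.01 to 0.099 over 20 settings). It was also lost without unstimulated PKD2-null replicate 1 or 3 or stimulated PKD2-null replicate 1 or 3 (adjusted p of 0.050 to 0.099). Sdhb, the iron-sulfur subunit, changed by 0.03 and 0.09, and Sdhd, the other anchor, by -0.07 and 0.05, and neither was called.

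In complex III, 3 of 9 subunits rose and 1 fell in PKD2-null cells, and 5 rose and 1 fell in wild-type cells, with medians of 0.18 and 0.27. Uqcrq, a small subunit near the quinone site, had the largest change. It read 11.18, 11.08 and 11.16 on the stimulated PKD2-null arrays, against 10.23, 10.33 and 10.16 on the unstimulated PKD2-null arrays. It read 11.26, 11.31 and 11.22 on the stimulated wild-type arrays, against 10.01, 10.01 and 9.98 on the unstimulated wild-type arrays. The unstimulated wild-type arrays were nearly equal and all lay below the unstimulated PKD2-null arrays. Uqcrq rose by 0.90 (SE 0.0746, adjusted p = 2.1e-06), 1.87-fold, in PKD2-null and by 1.26 (SE 0.0746, adjusted p = 7.1e-08), 2.4-fold, in wild-type cells.

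Uqcrfs1, the Rieske iron-sulfur protein that takes electrons from reduced coenzyme Q, rose less. Its arrays showed 11.16, 11.22 and 11.20 on the stimulated PKD2-null arrays, against 10.99, 10.91 and 10.87 on the unstimulated PKD2-null arrays. Those of wild-type cells showed 11.38, 11.30 and 11.52 on the stimulated wild-type arrays, against 10.83, 10.84 and 10.86 on the unstimulated wild-type arrays. No stimulated array overlapped an unstimulated one of its genotype. The rise was 0.27 (SE 0.0783, adjusted p = 0.023) in PKD2-null and 0.56 (SE 0.0783, adjusted p = 0.00011) in wild-type cells. The PKD2-null call was lost after quantile normalization (0.20, adjusted p = 0.090, in a range of 0.0055 to 0.09 over 20 settings) and without unstimulated replicate 2 or 3 or stimulated replicate 2 or 3 of that genotype (adjusted p of 0.058 to 0.080).

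The other complex III subunits had smaller changes on their brightest probe sets. Uqcrb was not called there (0.17 in PKD2-null and 0.24 in wild-type cells). Another bright probe set of Uqcrb rose by 0.54 in PKD2-null (limma adjusted p = 0.00041) and by 0.54 in wild-type cells (adjusted p = 0.00028). Cyc1, the cytochrome that hands electrons to cytochrome c, rose by 0.23 (adjusted p = 0.041) in PKD2-null and by 0.39 (adjusted p = 0.0014) in wild-type cells, and its PKD2-null call did not hold with mouse as a block (adjusted p = 0.061, in a range of 0.015 to 0.19 over 20 settings). That call was lost without any single one of 8 arrays, namely unstimulated replicates 1 and 3 and stimulated replicates 2 and 3 of PKD2-null cells and unstimulated replicate 1 and stimulated replicates 1, 2 and 3 of wild-type cells (adjusted p of 0.050 to 0.13). The core protein Uqcrc2 rose by 0.26 (adjusted p = 0.035) in wild-type cells, a call that did not hold with mouse as a block (adjusted p = 0.063, in a range of 0.0063 to 0.22 over 20 settings) or without unstimulated replicate 2 or 3 or stimulated replicate 2 or 3 of wild-type cells (0.093 to 0.12). Uqcrc1, the other core protein, changed by 0.09 in PKD2-null and 0.22 in wild-type cells without a call (adjusted p = 0.065 in wild-type cells, with a range of 0.022 to 0.41 over 20 settings). Uqcr10, a small subunit, rose by 0.38 (adjusted p = 0.0047) in wild-type cells, a call lost after quantile normalization (0.27, adjusted p = 0.052). In PKD2-null cells it changed by 0.25 (adjusted p = 0.054), with a call under the mouse block (adjusted p = 0.049). Its dimmer probe sets did not follow. One fell by 0.51 (adjusted p = 0.0032) in PKD2-null and by 0.32 (adjusted p = 0.040) in wild-type cells, and the other changed by -0.10 and 0.04 without a call. With probe sets averaged per gene the wild-type change was 0.03 (adjusted p = 0.83).

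Uqcrh, the acidic hinge protein that joins cytochrome c1 and cytochrome c, fell slightly. Its values were 12.55, 12.48 and 12.49 on the stimulated PKD2-null arrays, against 12.85, 12.70 and 12.75 on the unstimulated PKD2-null arrays. In wild-type cells the values were 12.45, 12.37 and 12.48 on the stimulated wild-type arrays, against 12.69, 12.68 and 12.77 on the unstimulated wild-type arrays. The groups came close without overlap. Uqcrh fell by 0.26 (SE 0.0749, adjusted p = 0.021) in PKD2-null and by 0.28 (SE 0.0749, adjusted p = 0.012) in wild-type cells, and the PKD2-null call was lost without unstimulated replicate 1 or stimulated replicate 2 or 3 of that genotype (adjusted p of 0.067 to 0.083).

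Cycs encodes somatic cytochrome c, which carries electrons from complex III to complex IV and triggers the apoptosome when released. The array levels were 12.57, 12.60 and 12.59 on the stimulated PKD2-null arrays, against 11.36, 11.59 and 11.30 on the unstimulated PKD2-null arrays. They were 12.76, 12.89 and 12.76 on the stimulated wild-type arrays, against 11.58, 11.55 and 11.50 on the unstimulated wild-type arrays. The stimulated groups were far above the unstimulated ones, and the 3 stimulated PKD2-null arrays were nearly equal and lay below the 3 stimulated wild-type arrays. That difference between stimulated genotypes was not called (-0.22, limma adjusted p = 0.25). Cycs rose by 1.17 (SE 0.0867, adjusted p = 8.3e-07), 2.25-fold, in PKD2-null cells and by 1.26 (SE 0.0867, adjusted p = 2.6e-07), 2.39-fold, in wild-type cells. The other bright probe sets of the gene gave 1.46 and 1.46 in PKD2-null and 1.67 and 1.63 in wild-type cells.

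**Figure D2:**
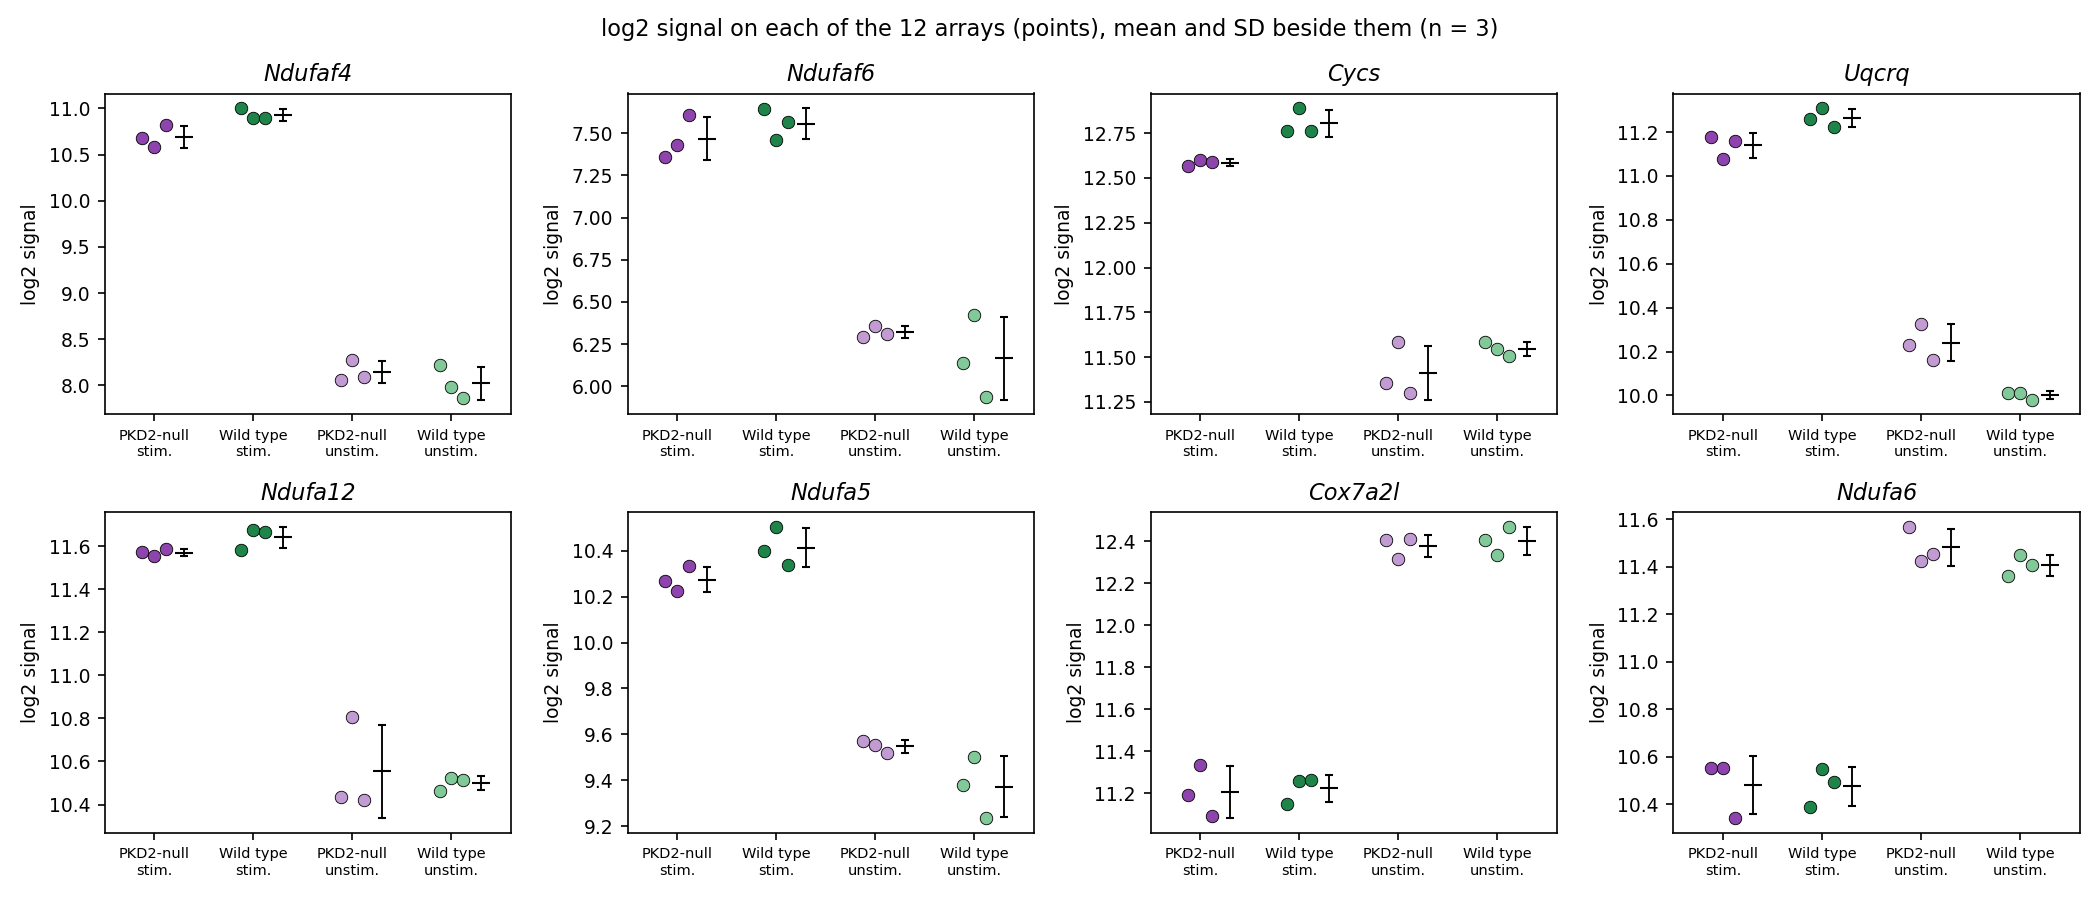
log2 signal of 8 members on each of the 12 arrays (points, 3 per group), with the group mean and SD beside them; each gene has its own vertical scale. The 6 rising genes and the falling genes Cox7a2l and Ndufa6 separate stimulated (left) from unstimulated (right) arrays without overlap in both genotypes. The genes were picked largely by their changes in this same comparison, so the lack of overlap adds no support.

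In complex IV, 2 of 19 genes rose and 1 fell in each genotype, with a median of 0.07 in each. That fall was the largest of the 92 members in both genotypes. Cox7a2l, a homolog of Cox7a2 that links complexes III and IV in respiratory supercomplexes, read 11.19, 11.33 and 11.09 on the stimulated PKD2-null arrays, against 12.40, 12.32 and 12.41 on the unstimulated PKD2-null arrays. It read 11.15, 11.26 and 11.26 on the stimulated wild-type arrays, against 12.40, 12.33 and 12.47 on the unstimulated wild-type arrays. All 6 stimulated arrays lay about 1 log2 unit below all 6 unstimulated arrays, and the genotypes overlapped within each condition. Cox7a2l fell by 1.17 (SE 0.0846, adjusted p = 6.8e-07), 2.26-fold, in PKD2-null cells and by 1.18 (SE 0.0846, adjusted p = 3.6e-07), 2.27-fold, in wild-type cells. Its other probe sets fell by 1.22 and 1.23 in PKD2-null and by 1.18 and 1.21 in wild-type cells.

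Cox7a2 itself, the subunit to which Cox7a2l is related, moved the other way. It measured 12.29, 12.39 and 12.29 on the stimulated PKD2-null arrays, against 11.93, 12.19 and 11.93 on the unstimulated PKD2-null arrays. Wild-type arrays measured 12.36, 12.41 and 12.35 on the stimulated wild-type arrays, against 11.93, 11.95 and 11.98 on the unstimulated wild-type arrays. Unstimulated PKD2-null replicate 2 came nearest to the stimulated arrays. The rise was 0.31 (SE 0.0847, adjusted p = 0.016) in PKD2-null and 0.42 (SE 0.0847, adjusted p = 0.0018) in wild-type cells; the PKD2-null call was lost after quantile normalization (0.21, adjusted p = 0.11, in a range of 0.002 to 0.11 over 20 settings) and without unstimulated replicate 1 or 3 or stimulated replicate 2 of that genotype (adjusted p of 0.060 to 0.065).

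Cox5a, a nuclear subunit on the matrix side, was the other complex IV gene that rose. Levels were 12.40, 12.39 and 12.46 on the stimulated PKD2-null arrays, against 11.89, 12.11 and 12.00 on the unstimulated PKD2-null arrays. Levels were 12.37, 12.61 and 12.52 on the stimulated wild-type arrays, against 12.14, 12.00 and 11.91 on the unstimulated wild-type arrays. The stimulated arrays were the higher ones in both genotypes, by a margin similar to the spread among unstimulated arrays. Cox5a rose by 0.42 (SE 0.0933, adjusted p = 0.0048) in PKD2-null and by 0.48 (SE 0.0933, adjusted p = 0.0013) in wild-type cells. The remaining structural genes, among them Cox4i1 (-0.16 and -0.17), Cox5b (0.16 and 0.21) and Cox6a1 (0.03 and 0.07), were not called. These 3 were picked out after their values were seen, as the main isoforms of large or bright subunits. Other bright probe sets were called: one of Cox5b rose by 0.27 (limma adjusted p = 0.032) in PKD2-null and 0.38 (adjusted p = 0.0030) in wild-type cells. Another of Cox5b rose by 0.32 (adjusted p = 0.017) and one of Cox6c by 0.31 (adjusted p = 0.013) in wild-type cells, without a call in PKD2-null cells.

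In ATP synthase, 4 of 17 genes rose and 2 fell in PKD2-null cells, and 5 rose and 2 fell in wild-type cells, with medians of 0.16 and 0.13. The 3 genes for the c subunit, which forms the proton-driven ring in the membrane, encode the same mature protein behind different import sequences. Atp5g1 was at 11.38, 11.22 and 11.48 on the stimulated PKD2-null arrays, against 10.03, 10.08 and 10.06 on the unstimulated PKD2-null arrays. It was at 11.31, 11.43 and 11.14 on the stimulated wild-type arrays, against 9.80, 9.80 and 9.74 on the unstimulated wild-type arrays. Stimulated and unstimulated arrays were separated by more than 1 log2 unit in each genotype. Atp5g1 rose by 1.31 (SE 0.0926, adjusted p = 6.0e-07), 2.47-fold, in PKD2-null cells and by 1.51 (SE 0.0926, adjusted p = 9.6e-08), 2.86-fold, in wild-type cells.

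Atp5g3 was at 12.71, 12.68 and 12.76 on the stimulated PKD2-null arrays, against 12.20, 12.38 and 12.32 on the unstimulated PKD2-null arrays. It was at 12.69, 12.66 and 12.60 on the stimulated wild-type arrays, against 12.26, 12.36 and 12.29 on the unstimulated wild-type arrays. The stimulated arrays were higher without overlap, by a smaller step than for Atp5g1. Its rise was 0.41 (SE 0.0764, adjusted p = 0.0012) in PKD2-null and 0.35 (SE 0.0764, adjusted p = 0.0034) in wild-type cells. Atp5g2 was at 11.23, 11.30 and 11.24 on the stimulated PKD2-null arrays, against 11.48, 11.68 and 11.40 on the unstimulated PKD2-null arrays. It was at 11.15, 11.24 and 11.05 on the stimulated wild-type arrays, against 11.35, 11.40 and 11.42 on the unstimulated wild-type arrays. Here the stimulated arrays were the lower ones in both genotypes. Atp5g2 fell by 0.27 (SE 0.0877, adjusted p = 0.040) in PKD2-null cells and was not called in wild-type cells (-0.24, SE 0.0877, adjusted p = 0.058). The PKD2-null call was lost without any single one of 8 arrays, namely unstimulated replicates 1 and 2 and stimulated replicates 1, 2 and 3 of PKD2-null cells, and unstimulated replicates 1 and 2 and stimulated replicate 1 of wild-type cells (adjusted p of 0.052 to 0.16). With its probe sets averaged, 2 of which are dim, the PKD2-null change was 0.10 (adjusted p = 0.35, in a range of 0.012 to 0.35 over 20 settings).

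**Figure D3:**
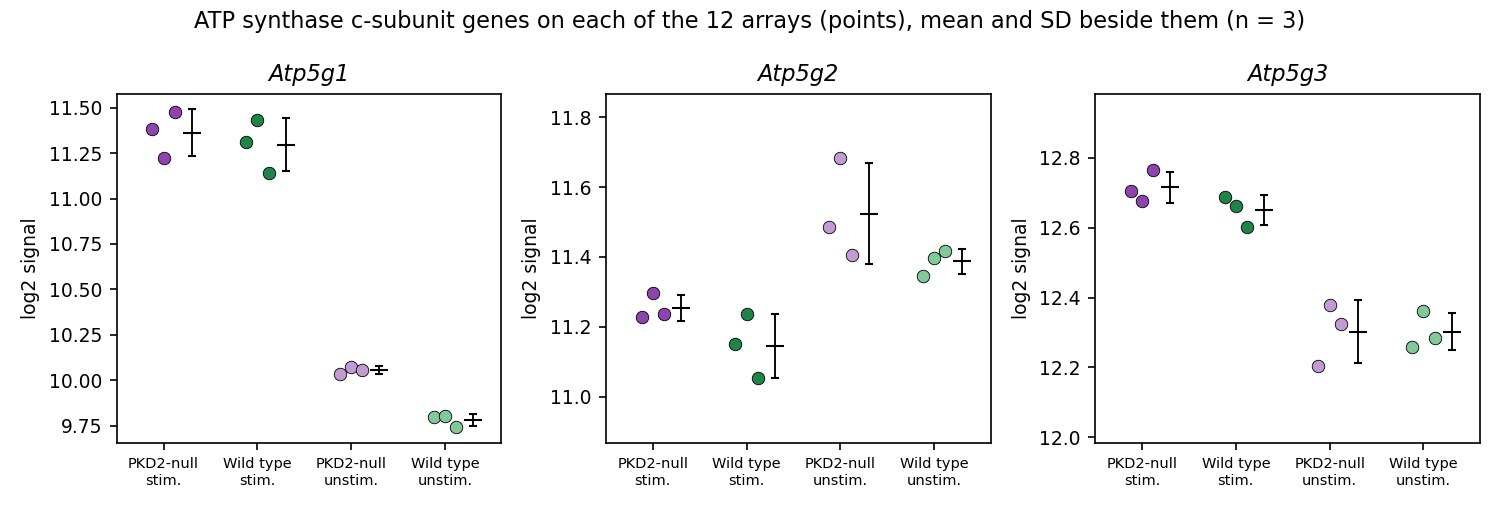
log2 signal of the 3 ATP synthase c-subunit genes on each of the 12 arrays (points), with group mean and SD; each gene has its own vertical scale. Stimulated arrays (left) are higher than unstimulated arrays (right) for Atp5g1 and Atp5g3 and lower for Atp5g2.

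The 250 bases before the start of these 3 genes are shown because genes for the same mature protein had changes of different size and sign. All are from RefSeq on GRCm38.p6 and read on the minus strand: chr11:96075632-96075881 for Atp5g1, chr2:73911327-73911576 for Atp5g3 and chr15:102671048-102671297 for Atp5g2. Capitals mark the E-box letters CACGTG in Atp5g1 (44 bases before the start) and Atp5g3 (238 bases before) and the NRF1 palindrome in Atp5g2 (42 bases before). Atp5g3 holds a further NRF1 match that begins 12 bases after the start, outside the stretch shown.
Atp5g1: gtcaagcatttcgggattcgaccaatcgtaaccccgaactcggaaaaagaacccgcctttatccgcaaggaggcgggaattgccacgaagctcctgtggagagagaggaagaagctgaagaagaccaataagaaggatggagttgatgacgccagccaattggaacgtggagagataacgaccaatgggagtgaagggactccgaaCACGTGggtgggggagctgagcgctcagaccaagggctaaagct
Atp5g3: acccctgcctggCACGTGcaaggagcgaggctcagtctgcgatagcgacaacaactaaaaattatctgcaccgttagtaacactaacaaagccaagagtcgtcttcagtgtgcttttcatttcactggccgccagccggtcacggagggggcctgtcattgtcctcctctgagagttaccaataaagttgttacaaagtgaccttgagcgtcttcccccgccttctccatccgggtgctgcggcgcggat
Atp5g2: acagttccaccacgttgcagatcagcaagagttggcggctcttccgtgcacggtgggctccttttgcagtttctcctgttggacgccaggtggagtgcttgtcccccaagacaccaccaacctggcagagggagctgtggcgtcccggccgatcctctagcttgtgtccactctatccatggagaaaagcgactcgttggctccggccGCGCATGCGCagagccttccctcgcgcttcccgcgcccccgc

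Among the other ATP synthase genes, Atp5md, a small membrane protein that helps dimers form, read 10.52, 10.55 and 10.67 on the stimulated PKD2-null arrays, against 9.77, 9.98 and 9.84 on the unstimulated PKD2-null arrays. It read 10.76, 10.53 and 10.70 on the stimulated wild-type arrays, against 9.93, 9.60 and 10.01 on the unstimulated wild-type arrays. The conditions were apart in both genotypes, although unstimulated wild-type replicate 2 lay below its group. Atp5md rose by 0.72 (SE 0.113, adjusted p = 0.00035) in PKD2-null and by 0.82 (SE 0.113, adjusted p = 9.5e-05) in wild-type cells. Atp5b, the catalytic beta subunit, rose by 0.43 (adjusted p = 0.00049) and 0.51 (adjusted p = 8.3e-05). Atp5a1, the alpha subunit that alternates with it in the head, changed by 0.02 and 0.12 without a call. Atp5k, the e subunit of the membrane part, was called in wild-type cells at 0.27 (adjusted p = 0.032) and changed by 0.21 in PKD2-null cells. Its wild-type call was made in 15 of 20 settings (adjusted p of 0.0046 to 0.21, the highest after quantile normalization). Atp5pb changed by 0.20 in PKD2-null and 0.21 in wild-type cells without a call. Another bright probe set of Atp5pb rose by 0.26 (limma adjusted p = 0.032) and 0.33 (adjusted p = 0.0066).

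The gamma subunit of the central stalk, Atp5c1, had 11.68, 11.72 and 11.67 on the stimulated PKD2-null arrays, against 11.91, 11.99 and 11.87 on the unstimulated PKD2-null arrays. It had 11.43, 11.63 and 11.54 on the stimulated wild-type arrays, against 11.81, 11.88 and 11.92 on the unstimulated wild-type arrays. Stimulated arrays were lower in both genotypes. Atp5c1 fell by 0.24 (SE 0.078, adjusted p = 0.044) in PKD2-null and by 0.33 (SE 0.078, adjusted p = 0.0054) in wild-type cells. The PKD2-null call did not hold with mouse as a block (adjusted p = 0.053, in a range of 0.0087 to 0.43 over 20 settings) or without any single one of 10 arrays, that is all but stimulated wild-type replicates 1 and 2 (adjusted p of 0.051 to 0.13). Atp5h, the d subunit of the peripheral stalk, had 12.03, 12.06 and 11.92 on the stimulated PKD2-null arrays, against 12.24, 12.28 and 12.17 on the unstimulated PKD2-null arrays. It had 11.86, 12.05 and 11.89 on the stimulated wild-type arrays, against 12.23, 12.26 and 12.13 on the unstimulated wild-type arrays. The changes were -0.23 (SE 0.0818, adjusted p = 0.063) in PKD2-null cells, without a call, and -0.27 (SE 0.0818, adjusted p = 0.022) in wild-type cells. The wild-type call was lost without unstimulated replicate 1 or 2 or stimulated replicate 1 or 3 of that genotype (adjusted p of 0.067 to 0.087).

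The next question was whether the response depended on PKD2. Of the members, 23 rose in both genotypes and 11 fell in both. Ndufb4 was the 1 member that rose in PKD2-null cells alone, and Atp5g2 and Ndufa10 the 2 that fell there alone, while Atp5k, Ndufb1, Ndufs1, Ndufs3, Uqcr10 and Uqcrc2 rose and Atp5h fell in wild-type cells alone. These calls are those of the brightest probe set of each gene. Another bright probe set of Atp5h fell in both genotypes, by 0.28 (limma adjusted p = 0.016) in PKD2-null and 0.24 (adjusted p = 0.033) in wild-type cells. One of Atp5k rose in both, by 0.32 (adjusted p = 0.0083) and 0.43 (adjusted p = 0.00074), and a further one was called in neither. A call in 1 genotype does not show a difference between them, and 0 members were called in opposite directions. The changes had the same sign in both genotypes for 84 of 92 members, and their Pearson correlation across the 92 genes was 0.97, over different arrays but the same probe sets. Of the 23 genes that rose in both genotypes, the rise was larger in wild-type cells for 21. The matching shares over all genes were not computed for these counts. By another measure, 7 members and 1031 of all 18193 genes had a change of 1 or more in wild-type cells. In PKD2-null cells 5 members and 749 of all genes did. These counts do not give the share of all genes with a larger rise in wild-type cells.

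**Figure D4:**
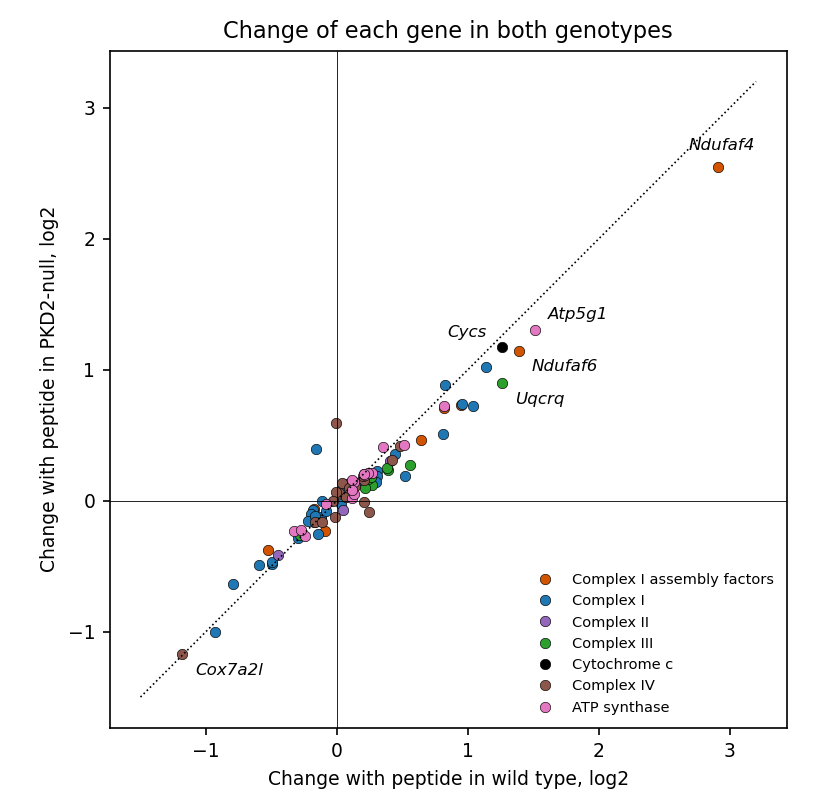
Change with the peptide (log2, stimulated minus unstimulated) of each of the 92 members in PKD2-null cells (vertical axis) against wild-type cells (horizontal axis), coloured by complex; the dotted line marks equal changes. Most points follow the line (correlation 0.97), and most of the larger rises lie below it.

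The difference between the 2 stimulation effects was itself tested. None of the 92 members was called (limma), where 0.0055% of all genes were, and 7 had an unadjusted p under 0.05, or 7.61%, beside 7.71% of all genes. Of these 7, 1 was higher and 6 lower in PKD2-null cells, where 491 of all genes were higher and 911 lower at that unadjusted p. The smallest p was that of Uqcrq, with a difference of -0.36 (SE 0.106, adjusted p = 0.51). Uqcrfs1, Ndufa5 and Ndufb2 had differences of -0.29, -0.32 and -0.30, at an adjusted p of 0.64 each. For Ndufb4 the difference was 0.55 (adjusted p = 0.55) on its dim probe set. The median difference was -0.03 over the members and -0.02 over all genes.

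Without the peptide 0 of 92 members were called between genotypes (limma), where 0.044% of all genes were, and 9 had an unadjusted p under 0.05, or 9.78%, beside 10.6% of all genes. Of the 9, 8 were higher in PKD2-null cells, where 1238 of all genes were higher and 690 lower at that unadjusted p. The smallest p values were those of Uqcrq (0.24, adjusted p = 0.36), Ndufb1 (0.41, adjusted p = 0.37), Atp5l (0.21, adjusted p = 0.40), Atp5g1 (0.27, adjusted p = 0.40) and Ndufa2 (0.19, adjusted p = 0.48), all with the higher mean in PKD2-null cells. For Uqcrq and Atp5g1 the array values given above did not overlap between the unstimulated genotypes. Both genes were picked by their p in this same comparison, so the lack of overlap adds no support. The B cell markers were also higher on the unstimulated PKD2-null arrays, and the part of that in these differences was not tested. The median over the members was 0.06, with 67 of 92 above 0, and over all genes it was 0.01, with 9479 of 18193 above 0. Over the 10328 genes left when dim probe sets were left out, the median was 0.04.

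With the peptide 0 of 92 members were called (limma), where 1.64% of all genes were, and 10 had an unadjusted p under 0.05, or 10.9%, beside 17.6% of all genes. Ndufaf3 came nearest, with 7.90, 8.07 and 7.99 on the stimulated PKD2-null arrays, against 7.56, 7.67 and 7.65 on the stimulated wild-type arrays. These did not overlap, which adds no support since the gene was picked by its p in this same comparison. The Ndufaf3 difference was 0.36 (SE 0.0872, adjusted p = 0.075). It was called with dim probe sets left out and with probe sets averaged per gene (adjusted p = 0.043 in both, in a range of 0.043 to 0.18 over 20 settings). The other 4 smallest p values were those of Ndufaf7 (0.28, adjusted p = 0.16), Ndufb11 (0.20, adjusted p = 0.22), Ndufa2 (0.20, adjusted p = 0.22) and Uqcrfs1 (-0.20, adjusted p = 0.24). The median over the members was 0.00.

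Genes around the respiratory chain were read in the same fit as lists. Of all 18193 genes, 12.5% rose and 19.0% fell in PKD2-null cells, and 15.1% rose and 20.4% fell in wild-type cells. Of the 10328 genes left without dim probe sets, 2339 rose and 3549 fell in PKD2-null cells, and 2682 rose and 3751 fell in wild-type cells. The lists were not tested against any of these shares or counts. Of 41 measured assembly factors outside the symbol rule, 16 rose and 9 fell in PKD2-null cells and 19 rose and 8 fell in wild-type cells, with medians of 0.05 and 0.17. The largest rise there was that of Sco2, a copper chaperone of complex IV, by 1.78 (SE 0.153, adjusted p = 2.8e-06) and 2.34 (SE 0.153, adjusted p = 1.7e-07), and the largest fall that of Uqcc3, a complex III factor, by 1.03 in PKD2-null and 1.19 in wild-type cells. Of 23 regulators of mitochondrial DNA expression and biogenesis, 11 rose and 3 fell in PKD2-null cells and 11 rose and 5 fell in wild-type cells. Pprc1, a coactivator of the PGC-1 family, rose by 1.96 and 2.24 and Polg2, the accessory subunit of the mitochondrial DNA polymerase, fell by 1.80 and 2.20. Of 17 citrate cycle genes, 4 rose and 4 fell in PKD2-null cells and 8 rose and 5 fell in wild-type cells, from Idh3a (1.12 and 1.33) to Idh2 (-1.17 and -1.23). Of 19 genes for other electron donors and coenzyme Q, 9 rose and 5 fell in PKD2-null cells and 10 rose and 3 fell in wild-type cells. Chchd4, the import receptor for small cysteine-rich proteins of the intermembrane space, led them with rises of 1.95 and 2.30; the largest falls were those of Sqor in PKD2-null cells (-1.32) and Etfdh in wild-type cells (-1.08). Of the mitochondrially encoded subunits only ND5 was measured here, with changes of -0.40 (adjusted p = 0.055) and -0.31 (adjusted p = 0.14) and no call.

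What the member promoters share beyond their names was read from RefSeq windows on GRCm38.p6, from 250 bases before to 50 bases after a start. The table held 80 windows for 75 of the 92 members and 32851 windows for 27025 genes in all, and matches on either strand were counted. The NRF1 palindrome was in 22.5% of member windows and 4.60% of all windows. The ETS letters CCGGAAG, bound by GABP, were in 23.8% and 8.86%, the YY1 letters AAGATGGCG in 8.75% and 1.40%, and the E-box CACGTG in 8.75% and 7.15%. The median GC content was 59.0% for member windows and 52.7% for all windows. The median number of CG dinucleotides was 20 in member windows and 7 in all windows. Each of these motifs contains CG, and the part of CG content in the motif shares was not tested. Windows of genes that rose in wild-type cells held the NRF1 palindrome in 5 of 24 cases, those of genes that fell in 4 of 13, and those of genes without a call in 9 of 43. The ETS letters were in 7, 2 and 10 of these, the YY1 letters in 1, 0 and 6, and the E-box in 2, 0 and 5.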

How the data were processed

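RNA from 12 cultures of lymph node cells was hybridised to Affymetrix mouse arrays. The authors deposited log2 signals, made with Affymetrix Expression Console 1.1 per the submitters' processing notes; how they were normalized is not stated in those notes, and the values were not normalized again. Array medians ran from 4.665 to 4.724 and values from 2.427 to 15.07. Of 45101 probe sets, 64 controls were left out. The brightest probe set by mean stood for each gene, and 932 probe sets of several genes, 10 of them for members, were not used as genes. Names ending in x_at or s_at, which can bind several transcripts, represented 19 members. The number of arrays limits the precision.

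The 4 group means were estimated in limma 3.58.1 under R 4.3.3 (8 residual and 4.18 prior degrees of freedom), tested on simulated data, with p adjusted over 45037 probe sets. The members, the lists and the rule for named genes were chosen with earlier results of these data known. Named are, per complex, the called members with the 4 largest rises and 4 largest falls, the called assembly factors and the core subunits; between genotypes, the 5 smallest p values. Array values are given per complex for the 2 members that rose most and the 2 that fell most in wild-type cells, and for genes that the text turns on. As most were picked by the stimulation change, a lack of overlap between their stimulated and unstimulated arrays adds no support to the calls.

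Animal numbers in the labels pair the 2 arrays of a mouse. Deviations from group means correlated at 0.116 to 0.577 between the arrays of a mouse and at no more than 0.129 between mice. The mouse as a block was an alternative, as were quantile normalization, centring, left-out dim probe sets, probe sets averaged per gene, trend and robust variances, a fit of the compared groups only, and each array left out. Promoter windows came from RefSeq on GRCm38.p6.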

Additional observations from a re-analysis of the deposited data

Results flagged for a closer look

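Ndufb4, a complex I accessory subunit, had changes of opposite direction in the 2 genotypes: with the peptide all 3 PKD2-null mice had a higher signal and all 3 wild-type mice a lower one. The levels were 3.91, 3.92 and 4.15 on the stimulated PKD2-null arrays, against 3.55, 3.66 and 3.59 on the unstimulated PKD2-null arrays. They were 3.82, 3.51 and 3.74 on the stimulated wild-type arrays, against 4.07, 3.66 and 3.82 on the unstimulated wild-type arrays. The difference of the stimulation effects was 0.55 (SE 0.168, limma adjusted p = 0.55), which was not called. The probe set averages 3.78, near the lower end of the scale.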

How the results depend on the processing

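The directions of the called genes named for both stimulation comparisons held under every alternative run except for Atp5g2 in PKD2-null cells, which changed by 0.097 (adjusted p = 0.35) with probe sets averaged per gene. In PKD2-null cells, 8 members fell when the fit held the compared groups alone, and without 1 array 17 to 25 rose and 8 to 13 fell, with 8 falls without unstimulated replicate 1 or stimulated replicate 3 of that genotype; the median change was 0.089 to 0.16. In wild-type cells, quantile normalization gave 19 falls and a median of 0.042, and without 1 array 27 to 31 rose, 10 to 13 fell and the median was 0.11 to 0.13. Between genotypes in stimulated cells 1 member, Ndufaf3, was called higher in PKD2-null cells with dim probe sets left out and 1, the same gene, with probe sets averaged per gene. With the mouse as a replicate block, PKD2-null cells had 22 rises and 12 falls and wild-type cells 28 rises and 12 falls, and 0 members were called in the genotype comparisons and in the difference of effects. The block ended the PKD2-null calls of Atp5c1, Cyc1, Ndufb7 and Sdhc and the wild-type call of Uqcrc2, added Uqcr10 in PKD2-null cells, and changed no other call of a member. The causes were not tested.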
